A study of Homo sapiens with 45 samples.

Results

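The neurite skeleton of 3 neuroblastoma lines under palbociclib (PB) was followed through 10 genes, taken by their symbols from a list drawn up with earlier results of these data known. They are the neurofilament triplet NEFL, NEFM and NEFH, the neuronal intermediate filaments INA and PRPH, the microtubule-associated proteins MAPT, MAP2, MAP1B and DCX, and the growth cone protein GAP43. All 10 of the 10 were found among the 29159 genes of the count tables, and all 10 had enough counts to be tested in each line, since the lowest count of any of them in any library was 106. RNA was sequenced from the established human lines SK-N-BE(2)C (MYCN amplified, loss of 1p), IMR-32 (MYCN and MEIS1 amplified, loss of 1p) and SH-SY5Y (ALK mutant, gains of 1q and 17q), which the study calls ADRN-type, for adrenergic. Each line was grown as a control, with 1 μM PB for 24 h, or with 1 μM PB for longer, which was 7 d in SK-N-BE(2)C and 5 d in IMR-32 and SH-SY5Y. PB inhibits the cell-cycle kinases CDK4 and CDK6. Each of the 9 groups has 5 libraries, 45 in all, which the study describes as different passages plated in independent experiments. Because the control cultures were harvested at the 24 h time, the longer groups differ from control in days of culture as well as in PB, and the difference between 7 d and 5 d cannot be told apart from the difference between lines.

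Neurofilaments are the intermediate filaments of axons. NEFL, NEFM and NEFH assemble with each other and with INA (α-internexin), which appears early in developing neurons, while PRPH (peripherin) is typical of peripheral neurons, including those of the sympathetic lineage from which neuroblastoma arises. Microtubules run alongside these filaments: MAPT (tau) binds them mainly in axons, MAP2 mainly in dendrites, MAP1B in growing axons, and DCX (doublecortin) in migrating and extending young neurons. GAP43 is a membrane-bound protein of the growth cone, the motile tip of a growing neurite.

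Libraries held 13459219 to 25441812 counts. Levels are given as CPM (counts scaled to 1000000 per library, after a TMM factor). Of 9 adrenergic marker genes, 9, 9 and 8 averaged at least 1 CPM in the controls of SK-N-BE(2)C, then IMR-32 and then SH-SY5Y. By the same rule 8, 6 and 10 of 11 mesenchymal markers did, so this floor cannot check the adrenergic label. Replicate 5 of IMR-32 stood apart in all 3 groups: its median correlation with the other libraries of its group over log2 values was 0.967 (control), 0.966 (24 h) and 0.979 (5 d), against at least 0.9846 for every other library of the series. Its adrenergic marker sum was the lowest of the 5 controls (2146 CPM, others 2743 to 3219) and its mesenchymal marker sum the highest (487 CPM, others 345 to 445), and the IMR-32 responses of the 10 genes at the longer time are therefore given with and without it, other results where leaving it out changes a call. Among the SK-N-BE(2)C controls and 24 h libraries, replicates 3 to 5 resembled one another more than they did replicates 1 and 2, and at 7 d replicates 4 and 5 did so. Between 2 libraries, chi-square per degree of freedom was 2.43 to 3.18 among control replicates 3 to 5, against 11.19 to 19.22 for other control pairs. At 24 h it was 1.69 to 2.42 against 7.05 to 23.6. At 7 d it was 5.6 for replicates 4 and 5, against 19.34 to 77.8. Whether they share a source was not tested. If they do, the SK-N-BE(2)C p-values rest on fewer independent cultures than libraries. The libraries were made with a directional kit, but the labels and methods do not say which strand entered the counts, which matters for members that overlap a gene of the opposite strand.

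The promoters of PRPH, INA and GAP43 are shown because they alone met the conditions given next, whatever their response to PB. Of the 10 genes, INA, PRPH, MAP2, MAP1B, GAP43 and DCX matched the RefSeq promoter table (build GRCh38.p14), and these 3 have a single start there and no annotated exon in the 250 bases before it. Each was matched exactly once in GRCh37, the build of the counts (hg19), all on the plus strand, at chr12:49688680-49688929 for PRPH, chr10:105036645-105036894 for INA and chr3:115342107-115342356 for GAP43. Capitals mark matches to 4 motifs searched on both strands.
PRPH: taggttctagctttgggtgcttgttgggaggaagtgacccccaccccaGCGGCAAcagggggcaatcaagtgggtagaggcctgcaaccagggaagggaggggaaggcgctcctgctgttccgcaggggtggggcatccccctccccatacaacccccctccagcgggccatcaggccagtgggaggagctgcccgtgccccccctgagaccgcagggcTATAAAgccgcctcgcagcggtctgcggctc
INA: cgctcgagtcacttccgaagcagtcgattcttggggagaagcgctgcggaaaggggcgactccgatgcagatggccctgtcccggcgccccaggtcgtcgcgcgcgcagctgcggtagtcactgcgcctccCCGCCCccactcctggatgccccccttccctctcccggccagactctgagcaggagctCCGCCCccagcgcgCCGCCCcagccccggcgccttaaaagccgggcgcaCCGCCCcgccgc
GAP43: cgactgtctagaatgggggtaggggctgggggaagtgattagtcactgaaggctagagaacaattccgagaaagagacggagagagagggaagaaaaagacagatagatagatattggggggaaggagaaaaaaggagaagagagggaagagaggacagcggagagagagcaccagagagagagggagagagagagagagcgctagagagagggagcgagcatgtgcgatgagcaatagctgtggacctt

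The motifs were a TATA box (TATAAA), a GC box (GGGCGG), a MYC-type E-box (CACGTG) and an E2F-type site spelled as TTCCCGC, as TTGGCGC, as TTGCCGC or as TTCGCGC. In the PRPH window the TATA box begins 31 bases before the start (position -31) and 1 E2F-type match begins at position -202. The INA window holds 4 GC boxes, beginning at positions -119, -61, -47 and -12. None of the 4 motifs occurs in the GAP43 window, which is rich in GA repeats. Of 35114 promoters of the same length, 10.7% hold the TATA box, 42.6% the GC box, 6.35% the MYC-type E-box and 10.9% the E2F-type site. These are matches of letters only. The G and C content of the windows is 66.8% (PRPH), 72.8% (INA) and 51.6% (GAP43).

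The 3 lines began from different skeletons. Levels between genes are compared as CPM per kb of merged exons, as means ± SD of 5 libraries. Neuronal filament genes led the SK-N-BE(2)C controls: NEFM stood at 236 ± 53.0 CPM per kb, PRPH at 232 ± 41.3 and NEFL at 171 ± 37.1, and the ranges of neighbours in this order overlapped. In IMR-32 controls MAP1B (118 ± 14.7 CPM per kb) and INA (107 ± 8.20) led with overlapping ranges, followed by DCX at 59.4 ± 20.9, while NEFH was lowest at 3.43 ± 1.54. In SH-SY5Y controls MAP1B (66.5 ± 7.82 CPM per kb), NEFL (60.7 ± 3.0), INA (51.2 ± 4.92), GAP43 (46.9 ± 5.52) and NEFM (39.4 ± 3.76) formed a run in which each range overlapped the next. MAPT was lowest in SK-N-BE(2)C (1.25 ± 0.322 CPM per kb) and SH-SY5Y (0.917 ± 0.191). Its merged exons (18400 bases) are far longer than its longest annotated transcript (6815 bases), and over that transcript it is 3.37, 24.2 and 2.48 CPM per kb in SK-N-BE(2)C, then IMR-32 and then SH-SY5Y. PRPH, with 2618 and 1800 bases, is 337 ± 60.0 CPM per kb in SK-N-BE(2)C over its longest transcript and then leads that line.

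**Figure D1:**
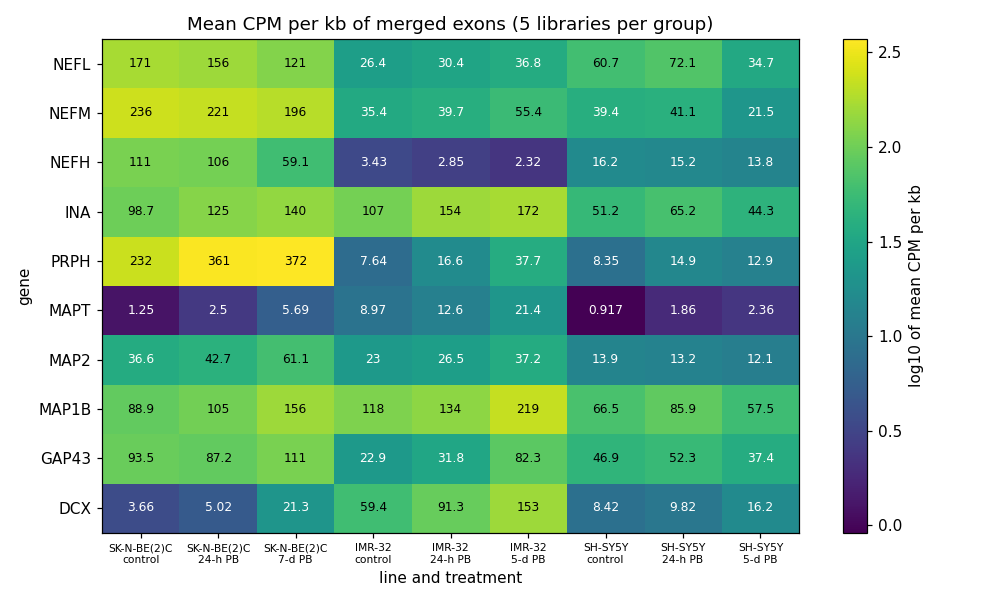
Mean CPM per kb of merged exons of each gene (rows) in each line and treatment (columns, 5 libraries each), with colour on a log10 scale. The PRPH row runs from 372 in 7-d PB SK-N-BE(2)C to 7.64 in IMR-32 controls, and the DCX row from 153 in 5-d PB IMR-32 to 3.66 in SK-N-BE(2)C controls.

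Between the lines' controls, 8 of the 10 genes differed in each pair, where calling a gene took a log2 difference beyond 0.5 as well as an adjusted p (Benjamini-Hochberg, over all tested genes) under 0.05. The share of all tested genes called in the same way was 62.1% for SK-N-BE(2)C against IMR-32, 57.5% for SK-N-BE(2)C against SH-SY5Y and 54.2% for IMR-32 against SH-SY5Y. PRPH was 4.91 ± 0.27 (log2 difference ± SE) higher in SK-N-BE(2)C than in IMR-32 and 4.79 ± 0.27 higher than in SH-SY5Y. NEFH was likewise 5.02 ± 0.32 and 2.77 ± 0.29 higher in SK-N-BE(2)C. The other way round, DCX was 2.82 ± 0.31 and MAPT 3.29 ± 0.44 higher in IMR-32 than in SH-SY5Y, and in SK-N-BE(2)C minus IMR-32 the differences were -4.01 ± 0.33 for DCX and -2.84 ± 0.43 for MAPT. MAP1B was called only between IMR-32 and SH-SY5Y (0.82 ± 0.11). In SK-N-BE(2)C minus IMR-32 it was -0.40 ± 0.10 (adjusted p 0.000643), and minus SH-SY5Y 0.42 ± 0.10 (adjusted p 0.000452), both within the limit of 0.5. The former was called (-0.51) without SK-N-BE(2)C control replicate 2. INA did not pass between SK-N-BE(2)C and IMR-32 (-0.12 ± 0.07, adjusted p 0.123).

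After 24 h of PB, 2 of the 10 genes passed the test in each line, close to the share of all tested genes, and those that passed were higher. MAPT and PRPH were called higher in SK-N-BE(2)C, INA and PRPH in IMR-32, and MAPT and PRPH in SH-SY5Y, while 0 were called lower. Without the fold limit 4, 2 and 4 were called in this order of lines, all higher, where 46.8%, 33.1% and 49.2% of all tested genes were called. With the limit, the shares of all tested genes called higher were 10.9%, 7.87% and 10.5% in the same order, and called in either direction 21.5%, 18.3% and 21.5%. None of the 10 genes with a negative log2 fold change (log2FC) reached an unadjusted p under 0.05 in edgeR, or an adjusted p under 0.05 in DESeq2 (0 in each line). The median log2FC of the 10 genes was 0.23, 0.35 and 0.21 in the same order, beside 0.02, 0.06 and 0.04 over all tested genes. Control and 24 h libraries did not overlap in 38.8%, 23.6% and 39.1% of all tested genes. Of the 10, 3, 1 and 4 lay wholly above the controls, and GAP43 in SK-N-BE(2)C lay wholly below.

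At the longer time 7, 7 and 5 of the 10 genes were called, in directions that differed by line. The SK-N-BE(2)C line had 6 called higher (MAPT, DCX, PRPH, INA, MAP1B and MAP2) and 1 lower (NEFH), where 46.8% of all tested genes were called, 24.5% higher and 22.3% lower. In IMR-32 7 were called higher (DCX, PRPH, INA, NEFM, MAP1B, MAP2 and GAP43) and 0 lower, where 32% of all tested genes were called, 16.6% higher and 15.5% lower. With the replicate number as a block, which pairs these IMR-32 groups, all 10 were called, 9 higher (MAPT and NEFL added) and 1 lower (NEFH), where 35% of all tested genes were called in that fit. In SH-SY5Y 3 were called higher (MAPT, DCX and PRPH) and 2 lower (NEFL and NEFM), where 35.9% of all tested genes were called, 18.6% higher and 17.3% lower. PRPH and DCX were the members called higher in all 3 lines. MAPT was called in SK-N-BE(2)C and SH-SY5Y, and in IMR-32 when replicate 5 was left out. Both times were set against the same control libraries. Control and longer PB libraries did not overlap in 53.8%, 39.0% and 47.0% of all tested genes. Of the 10 genes, 5, 8 and 3 lay wholly above the controls and 0, 0 and 1 wholly below. The median log2FC of the 10 genes was 0.61, 0.84 and -0.23, beside 0.01, 0.0028 and 0.01 over all tested genes.

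**Figure D2:**
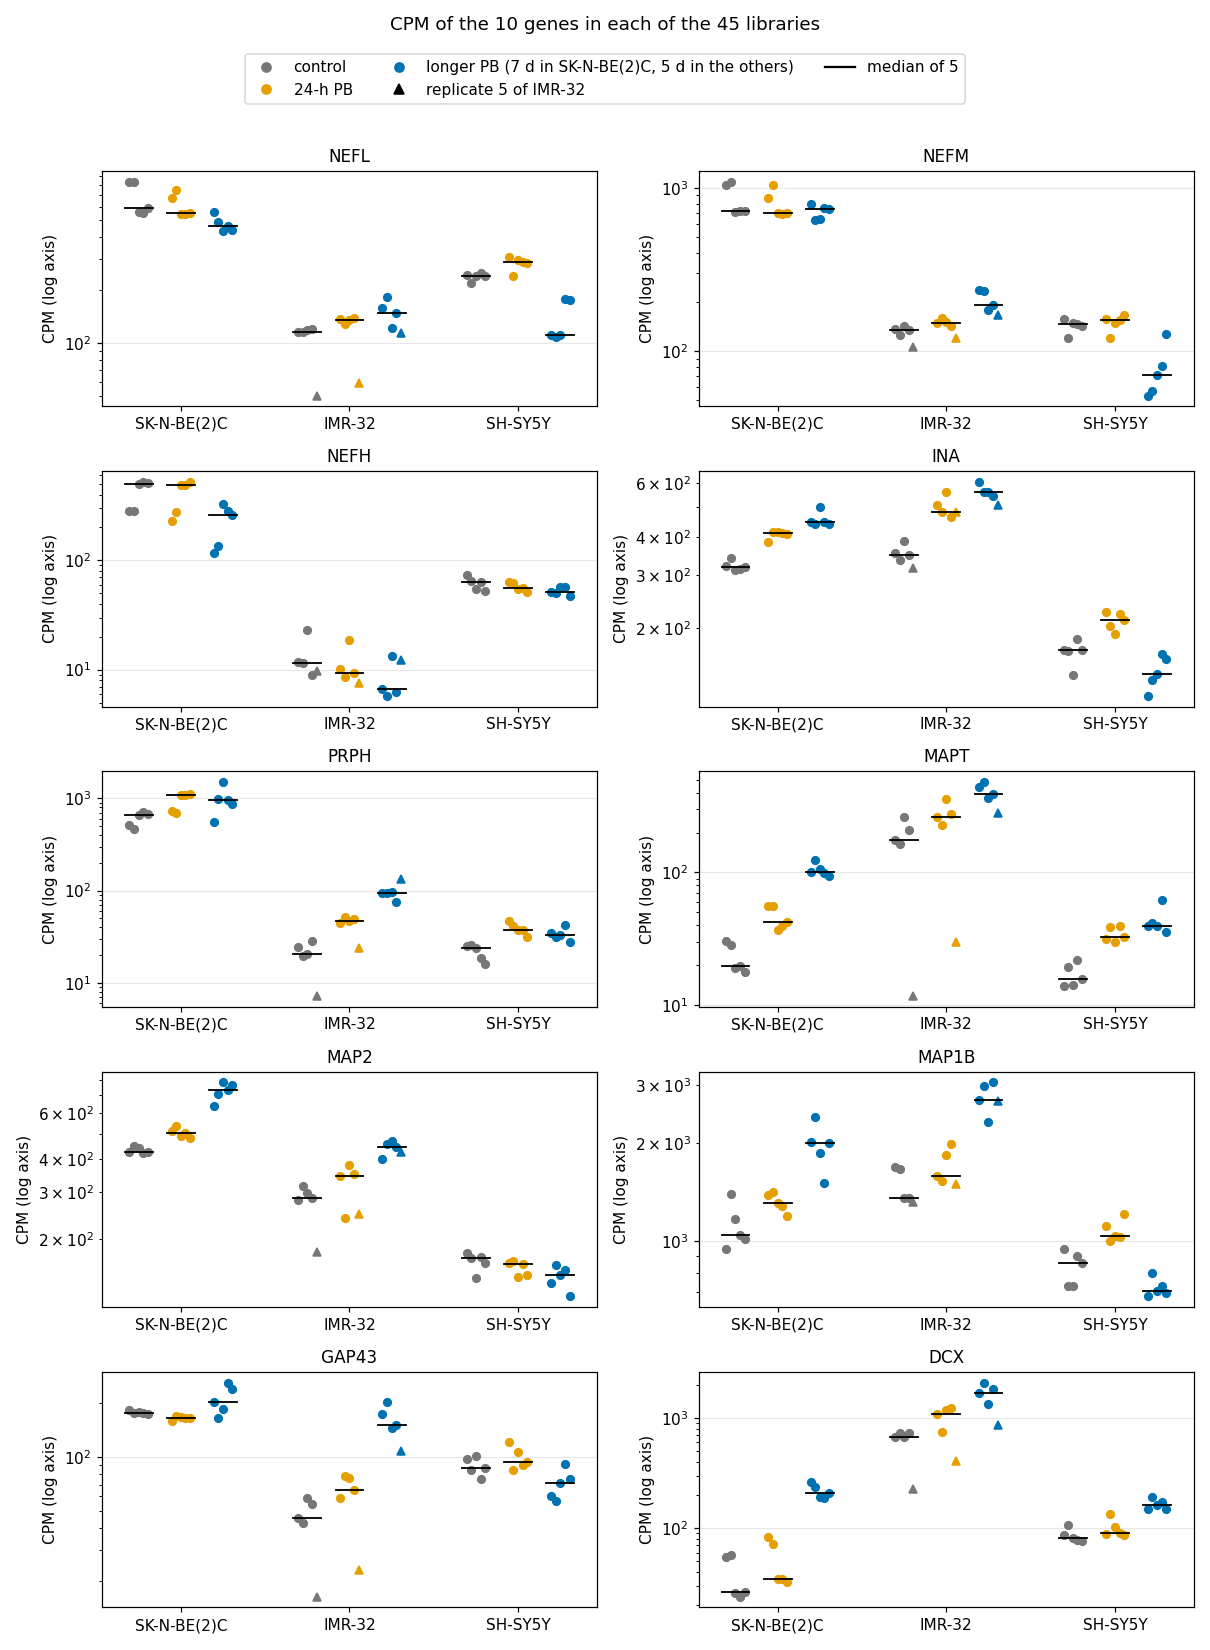
CPM (log axis) of each gene in each library, by line and treatment, with bars at the median of 5 and triangles for replicate 5 of IMR-32. The medians of MAPT and DCX step up from control to the longer time in each line, those of NEFL and NEFM step down in SH-SY5Y, and the triangle lies below the other IMR-32 controls for MAPT at 11.6 CPM.

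**Figure D3:**
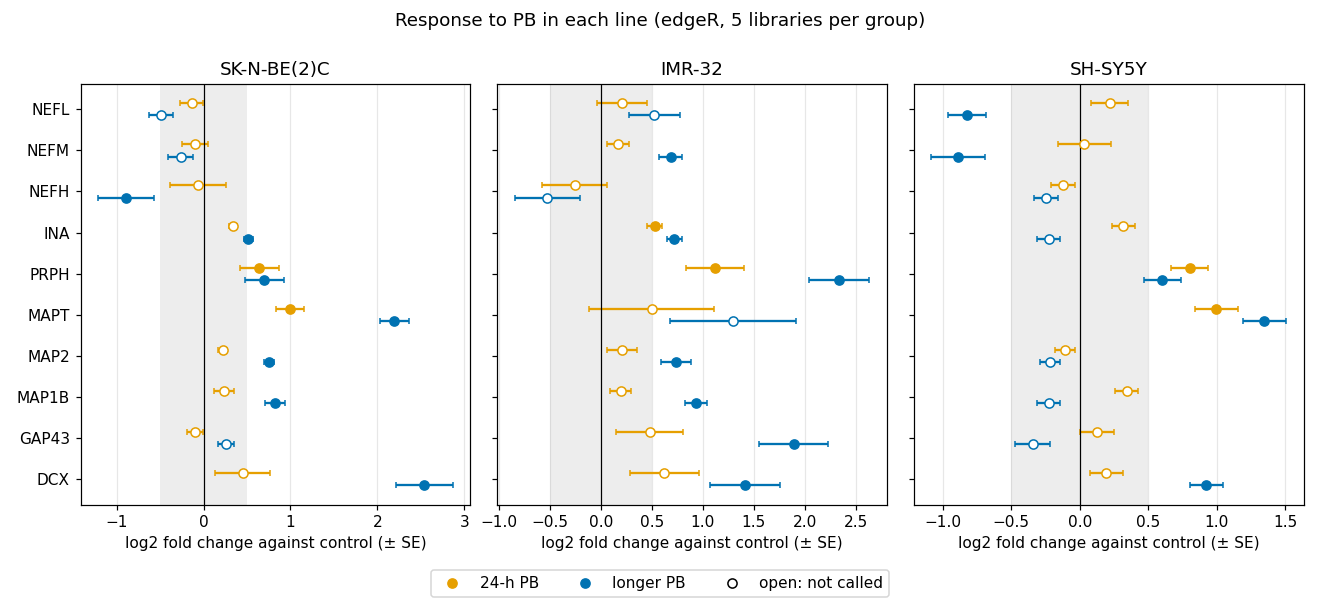
Log2 fold change against control ± SE for 24-h PB and longer PB in each line (x axis, own range per panel), filled where called. The grey band is the fold limit of 0.5. Longer PB gave filled points on both sides of 0 in SK-N-BE(2)C and SH-SY5Y and on the right side alone in IMR-32.

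The neurofilament light and medium genes lie 31856 bases apart on chromosome 8 (GRCh37, NEFL chr8:24808468-24814235 on the minus strand, NEFM chr8:24771271-24776611 on the plus strand), and each overlaps an unnamed gene of the opposite strand, over 781 and 960 exonic bases. At the longer time both were lower in SH-SY5Y, and NEFM was higher in IMR-32. In SH-SY5Y, NEFL stood at 245, 219, 242, 250 and 240 CPM in the controls, at 308, 241, 298, 288 and 284 after 24 h, and at 111, 108, 111, 179 and 175 after 5 d. All 5 values at 5 d lay below all 10 earlier ones, with replicates 4 and 5 above the other three. The fall was -0.82 ± 0.14 in log2FC against control (adjusted p 6.02e-05) and -1.04 ± 0.14 against 24 h (adjusted p 3.31e-05). NEFM in SH-SY5Y was at 157, 120, 149, 147 and 143 CPM in the controls and at 53.4, 57.2, 71.8, 81.4 and 128 after 5 d, so that replicate 5 reached into the control range. Its log2FC was -0.89 ± 0.19 (adjusted p 0.000986).

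In IMR-32, NEFM went from 136, 126, 142, 134 and 106 CPM in the controls to 237, 234, 178, 191 and 166 after 5 d, without overlap. The rise was 0.69 ± 0.11 (adjusted p 0.000144), and 0.69 ± 0.09 without replicate 5. NEFL in IMR-32 was at 115, 116, 119, 119 and 50.1 CPM in the controls and at 159, 182, 122, 148 and 114 after 5 d, with replicate 5 lowest in both. Its log2FC of 0.53 ± 0.25 was not called (adjusted p 0.089), with the replicate number as a block it was 0.58 ± 0.13 (adjusted p 0.00153), and without replicate 5 it was 0.43 ± 0.09 (adjusted p 0.000881), under the fold limit. NEFL in SK-N-BE(2)C was at 832, 833, 557, 552 and 592 CPM in the controls and at 558, 488, 435, 462 and 438 after 7 d. The control values split between replicates 1 and 2 and the rest, and the log2FC of -0.49 ± 0.13 (adjusted p 0.00397) lay just inside the fold limit. With replicates 3 to 5 summed as 1 library, it was -0.63 ± 0.15 (adjusted p 0.00413) and called, as it was without control replicate 3, 4 or 5 or 7 d replicate 1 or 2 (-0.56 to -0.50). NEFM there was at 714 to 1093 CPM in the controls and 635 to 792 after 7 d (log2FC -0.26 ± 0.15, adjusted p 0.119).

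Per kb, NEFM lay below NEFL in every SH-SY5Y library and above it in every library of the other lines. Over the 15 libraries of a line their log2 CPM correlated at r = 0.889, 0.779 and 0.943 in SK-N-BE(2)C, then IMR-32 and then SH-SY5Y, a description over libraries that share lines and treatments (0.852 over the 12 of IMR-32 without replicate 5). Per kb, NEFM exceeded NEFL 1.38 ± 0.04-fold in SK-N-BE(2)C controls and 1.45 ± 0.47-fold in IMR-32 controls (1.24 ± 0.05 without replicate 5, which was at 2.28), and stood at 0.648 ± 0.04 of NEFL in SH-SY5Y controls. The ratio was 1.63 ± 0.17 after 7 d in SK-N-BE(2)C, where the controls ranged over 1.31 to 1.42 and the 7 d libraries over 1.41 to 1.83. In the treated groups of IMR-32 it ranged over 1.11 to 2.18 (1.11 to 1.62 without replicate 5), and in those of SH-SY5Y over 0.492 to 0.789, so no SH-SY5Y library overlapped with the other lines.

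NEFH, the heavy subunit that carries long side arms (chr22:29876207-29887379, plus strand), was high in SK-N-BE(2)C and near the bottom of the set in IMR-32. Its SK-N-BE(2)C values were 284, 281, 498, 523 and 513 CPM in the controls, 231, 277, 487, 494 and 521 after 24 h, and 118, 134, 329, 282 and 260 after 7 d. Replicates 1 and 2 were lowest in every group. The fall at 7 d was -0.89 ± 0.32 (adjusted p 0.0225), it was not called with replicates 3 to 5 summed (-0.75 ± 0.41, adjusted p 0.132) or without replicate 2 of the 7 d group (-0.76 ± 0.33, adjusted p 0.0553), and with the replicate number as a block it was -0.95 ± 0.08 (adjusted p 1.17e-07). In IMR-32 it ranged over 8.95 to 23.2 CPM in the controls and 5.76 to 13.2 after 5 d (log2FC -0.52 ± 0.32, adjusted p 0.184, and -0.74 ± 0.36, adjusted p 0.094, without replicate 5), and with the block it was called at -0.50 ± 0.17 (adjusted p 0.0232). In SH-SY5Y it ranged over 51.9 to 73.1 CPM in the controls and 47.5 to 57.2 after 5 d, with a log2FC of -0.25 ± 0.09 under the fold limit (adjusted p 0.0175). The response did not pass the test of a difference between any pair of lines, except with the replicate block in SK-N-BE(2)C minus SH-SY5Y (-0.74 ± 0.15, adjusted p 0.000267).

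INA (chr10:105036895-105050103, plus strand, 452 exonic bases shared with NT5C2 on the opposite strand) was called higher in 2 lines. In IMR-32 it went from 354, 336, 388, 348 and 316 CPM in the controls to 511, 484, 561, 465 and 483 after 24 h and 607, 563, 563, 546 and 511 after 5 d. Both treated groups lay above all controls. The log2FC was 0.53 ± 0.07 at 24 h (adjusted p 4.17e-05) and 0.72 ± 0.07 at 5 d (adjusted p 2.22e-06), and 0.51 ± 0.07 and 0.72 ± 0.07 without replicate 5. The call at 24 h sits on the fold limit and was lost in DESeq2 (0.49 ± 0.07), without control replicate 5 (0.498) and without 24 h replicate 3 (0.487). The SK-N-BE(2)C line went from 312 to 340 CPM in the controls to 385 to 416 after 24 h and 441 to 501 after 7 d, and 0.52 ± 0.05 at 7 d (adjusted p 6.51e-08) was likewise near the limit, with the call lost without replicate 3 of that group (0.47), without a count filter (0.49 ± 0.06) and with replicates 3 to 5 summed (0.49 ± 0.07). The SH-SY5Y values were 170, 169, 140, 184 and 170 CPM in the controls, 227, 203, 192, 224 and 213 after 24 h, and 120, 135, 142, 165 and 159 after 5 d. At 24 h every SH-SY5Y library lay above every control, with a log2FC of 0.32 ± 0.09 (adjusted p 0.00532). That was under the fold limit, as was the 24 h rise in SK-N-BE(2)C (0.34 ± 0.05, adjusted p 1.99e-05). The fall in SH-SY5Y from 24 h to 5 d was -0.55 ± 0.09 (adjusted p 0.000106).

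PRPH (chr12:49688930-49692469, plus strand) was called higher in all 3 lines at both times. It overlaps the antisense gene TROAP-AS1 over 1872 of its 2618 exonic bases, and reads of the 2 genes cannot be told apart without the strand that was counted. In IMR-32 it stood at 24.3, 19.5, 20.4, 28.7 and 7.17 CPM in the controls, at 45.1, 52.1, 46.4, 49.7 and 24.0 after 24 h, and at 93.2, 95.2, 95.8, 74.6 and 134 after 5 d. Replicate 5 was lowest in control and at 24 h and highest at 5 d, and the 5 d values lay above all earlier ones. The log2FC was 1.12 ± 0.29 at 24 h (adjusted p 0.00791) and 2.34 ± 0.30 at 5 d (adjusted p 2.16e-05), and 1.06 ± 0.12 and 1.99 ± 0.12 without replicate 5.

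Where PRPH was already abundant, in SK-N-BE(2)C, it went from 515, 466, 660, 708 and 680 CPM to 730, 689, 1092, 1093 and 1119 after 24 h and 559, 994, 1503, 952 and 867 after 7 d. The 7 d libraries spread from 559 to 1503 CPM, with replicate 1 lowest and inside the control range. The log2FC was 0.64 ± 0.22 at 24 h (adjusted p 0.0295) and 0.70 ± 0.22 at 7 d (adjusted p 0.0119). The 24 h call was lost without control replicate 1 or 2 or 24 h replicate 3, 4 or 5, each left out in turn (0.56 to 0.59, adjusted p 0.0666 to 0.0748), and with replicates 3 to 5 summed (adjusted p 0.198), and the 7 d call was lost without replicate 3 of that group (0.48 ± 0.20). In SH-SY5Y PRPH went from 24.8, 25.9, 24.0, 18.6 and 15.9 CPM to 47.0, 41.3, 37.8, 36.96 and 31.6 after 24 h and 34.9, 31.2, 32.6, 42.0 and 27.5 after 5 d. Every treated library lay above every control. The log2FC was 0.80 ± 0.14 (adjusted p 0.000111) and 0.60 ± 0.14 (adjusted p 0.000888).

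The make-up of the filament genes differed by line. As a share of the summed CPM per kb of NEFL, NEFM, NEFH, INA and PRPH, PRPH held 27.4% ± 5.39 in SK-N-BE(2)C controls and 41.0% ± 8.52 at 7 d, while NEFH went from 13.1% ± 4.16 to 6.51% ± 2.14. INA held 59.9% ± 4.23 of the filament genes in IMR-32 controls and 56.5% ± 2.22 at 5 d, and PRPH 4.14% ± 1.47 and 12.5% ± 3.18 (4.70% ± 0.88 and 11.1% ± 1.08 without replicate 5). In SH-SY5Y, NEFL led the controls with 34.5% ± 1.34 and held 27.0% ± 2.87 at 5 d, when INA led with 35.1% ± 2.23. The summed CPM per kb of the 5 genes was 848 ± 21.6 in SK-N-BE(2)C controls and 888 ± 132 at 7 d. For IMR-32 it was 180 ± 21.9 and then 304 ± 20.2, and for SH-SY5Y 176 ± 8.78 and then 127 ± 21.8. Over the longest transcripts PRPH, not NEFM, leads the SK-N-BE(2)C controls, with 33.8% against 26.3%. Shares are a description and were not tested.

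**Figure D4:**
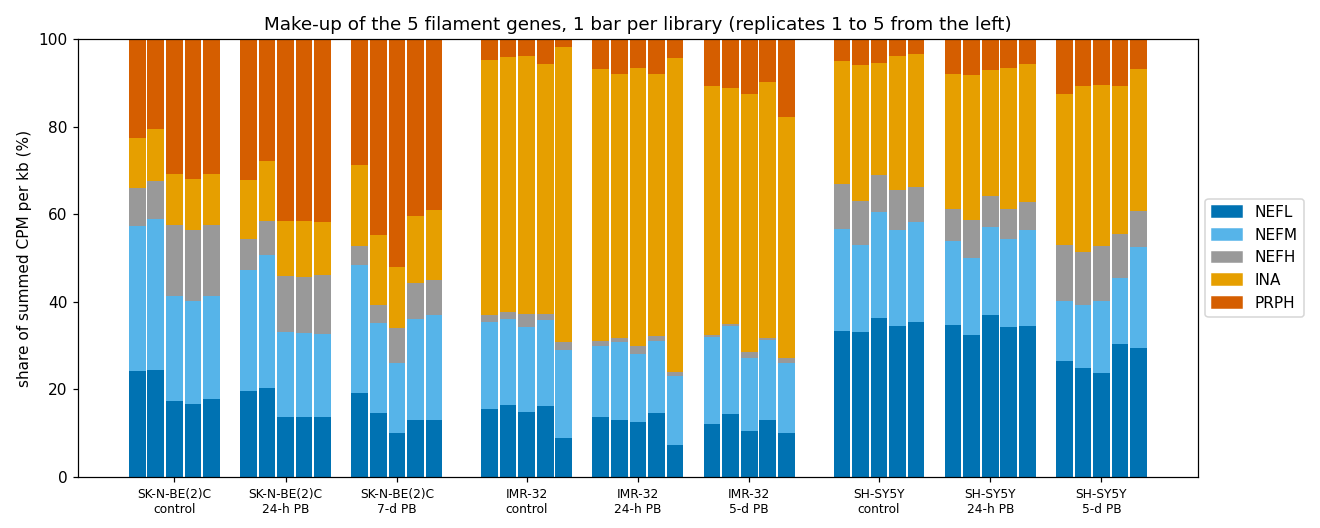
Share (%) of each filament gene in the summed CPM per kb of the 5, with 1 bar per library and replicates 1 to 5 from the left in each group. PRPH and NEFM take most of the SK-N-BE(2)C bars, INA over 50% of every IMR-32 bar, and NEFL and INA together most of the SH-SY5Y bars.

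MAPT (chr17:43971893-44105700, plus strand, 75 exonic bases shared with MAPT-AS1) had a log2FC above 1 at the longer time in each line, called in SK-N-BE(2)C and SH-SY5Y. In SK-N-BE(2)C it stood at 30.5, 28.2, 18.8, 19.7 and 17.6 CPM in the controls, at 55.5, 56.1, 36.8, 39.3 and 41.9 after 24 h, and at 101, 124, 106, 98.9 and 94.1 after 7 d. The 3 groups did not overlap. The log2FC was 0.995 ± 0.16 at 24 h (adjusted p 0.000138) and 2.19 ± 0.17 at 7 d (adjusted p 1.35e-08). In SH-SY5Y it went from 13.7, 19.4, 14.0, 21.6 and 15.6 CPM to 31.3, 38.5, 29.6, 39.5 and 32.5 after 24 h and 39.3, 41.4, 39.1, 62.0 and 35.7 after 5 d. Control and treated libraries did not overlap, and the log2FC was 0.996 ± 0.16 (adjusted p 6.28e-05) and 1.35 ± 0.16 (adjusted p 1.29e-06).

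In IMR-32, MAPT was at 176, 164, 263, 210 and 11.6 CPM in the controls, at 265, 229, 360, 278 and 29.7 after 24 h, and at 443, 482, 366, 395 and 280 after 5 d. Replicate 5 lay far below the others in control and at 24 h, and was lowest but nearer to them at 5 d. With it, the log2FC was 0.50 ± 0.61 at 24 h (adjusted p 0.568) and 1.30 ± 0.62 at 5 d (adjusted p 0.0931), the latter called without 24 h replicate 5 alone (1.30, adjusted p 0.0412). Without replicate 5 in all groups, the log2FC was 0.48 ± 0.15 (adjusted p 0.018, under the fold limit) and 1.10 ± 0.15 (adjusted p 1.87e-05, called), and with the replicate block the 5 d value was 1.80 ± 0.49 (adjusted p 0.00824, called).

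DCX (chrX:110537007-110655657, minus strand) overlaps no other exon and was called against control at the longer time in each line. Its SK-N-BE(2)C level was at 54.4, 56.8, 25.8, 23.8 and 26.1 CPM in the controls, at 83.5, 71.2, 34.7, 34.4 and 32.4 after 24 h, and at 261, 237, 192, 188 and 206 after 7 d. The 7 d libraries lay far above all others, and replicates 1 and 2 were highest in each group. The log2FC was 0.45 ± 0.32 at 24 h (adjusted p 0.265) and 2.54 ± 0.33 at 7 d (adjusted p 5.95e-06), and with replicates 3 to 5 summed the latter was 2.29 ± 0.35. In IMR-32, where DCX was already high, it went from 676, 731, 674, 723 and 228 CPM to 1089, 744, 1185, 1234 and 408 after 24 h and 1693, 2086, 1338, 1832 and 866 after 5 d. Replicate 5 was lowest in each group. The log2FC was 0.62 ± 0.34 at 24 h (adjusted p 0.174) and 1.41 ± 0.34 at 5 d (adjusted p 0.00351), and without replicate 5 both were called, at 0.60 ± 0.14 (adjusted p 0.00316) and 1.36 ± 0.15. In SH-SY5Y it went from 76.7 to 107 CPM in the controls to 87.2 to 134 after 24 h and 148 to 192 after 5 d. The log2FC at 5 d was 0.92 ± 0.12 (adjusted p 3.46e-06).

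MAP1B and MAP2 rose in 2 lines, IMR-32 and SK-N-BE(2)C, while neither was called against control in the SH-SY5Y line. MAP1B (chr5:71403061-71505392) went from 949, 1391, 1172, 1047 and 1016 CPM in SK-N-BE(2)C controls to 2014, 2394, 1864, 1502 and 2002 after 7 d (log2FC 0.82 ± 0.11, adjusted p 7.05e-06). In IMR-32 it went from 1690, 1664, 1351, 1353 and 1318 CPM to 2703, 2987, 2307, 3055 and 2685 after 5 d (0.94 ± 0.11, adjusted p 6.39e-06, and 0.91 ± 0.11 without replicate 5). Neither pair of groups overlapped. In SH-SY5Y it was at 731 to 944 CPM in the controls and 1001 to 1207 after 24 h (0.34 ± 0.08, adjusted p 0.00233, under the fold limit), and stood at 678 to 800 after 5 d. The step from 24 h to 5 d was -0.57 ± 0.08 (adjusted p 5.05e-05).

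MAP2 (chr2:210288771-210598871) went from 425, 450, 444, 422 and 427 CPM in SK-N-BE(2)C controls to 514, 535, 490, 503 and 484 after 24 h and 635, 708, 782, 732 and 764 after 7 d, in 3 groups with no overlap. Its log2FC was 0.22 ± 0.06 at 24 h, under the fold limit, and 0.75 ± 0.06 at 7 d (adjusted p 6.34e-09). In IMR-32 it went from 282, 316, 299, 285 and 178 CPM to 402, 458, 471, 447 and 426 after 5 d (0.74 ± 0.15, adjusted p 0.000785, and 0.64 ± 0.11 without replicate 5). In SH-SY5Y it was at 143 to 177 CPM in the controls and 121 to 160 after 5 d (-0.22 ± 0.07, adjusted p 0.0141, under the fold limit).

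GAP43 (chr3:115342357-115440337) was called against control in IMR-32 alone. There it went from 45.6, 42.5, 58.5, 54.1 and 16.4 CPM in the controls to 59.2, 78.4, 76.0, 65.7 and 23.1 after 24 h and 174, 204, 146, 151 and 108 after 5 d. Replicate 5 was lowest in each group, and the 5 d libraries lay above all others. The log2FC at 5 d was 1.89 ± 0.34 (adjusted p 0.000368), and 1.80 ± 0.13 without replicate 5. The SK-N-BE(2)C libraries were at 174 to 184 CPM in the controls and 165 to 261 after 7 d (0.26 ± 0.09, adjusted p 0.018), and in SH-SY5Y at 74.9 to 101 and 56.5 to 91.7 (-0.34 ± 0.13, adjusted p 0.0246), both under the fold limit. At 24 h the SK-N-BE(2)C libraries were at 159 to 170 CPM, all below the controls (-0.10 ± 0.09, adjusted p 0.385).

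Whether the lines differed in their response was tested in a fit of all 45 libraries, as the difference of log2FC of the first line minus the second. At 24 h, 0 of 10 genes passed in any of the 3 pairs, where 4.49% (SK-N-BE(2)C minus IMR-32), 2.04% (SK-N-BE(2)C minus SH-SY5Y) and 3.07% (IMR-32 minus SH-SY5Y) of all tested genes were called. In edgeR 0 of them had an unadjusted p under 0.05, and DESeq2 called 0 as well, which does not show that the lines respond alike at 24 h. At the longer time 5 of 10 differed between SK-N-BE(2)C and IMR-32, 5 of 10 between SK-N-BE(2)C and SH-SY5Y and 7 of 10 between IMR-32 and SH-SY5Y, where 23.9%, 21.2% and 20.8% of all tested genes were called.

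IMR-32 exceeded SH-SY5Y in the response of 3 kinds of genes: GAP43 by 2.17 ± 0.31, the filament genes PRPH by 1.67 ± 0.34, NEFM by 1.52 ± 0.23, NEFL by 1.29 ± 0.27 and INA by 0.89 ± 0.10, and the microtubule-binding MAP1B by 1.11 ± 0.15 and MAP2 by 0.89 ± 0.15. Adjusted p-values of these 7 lay between 8.73e-09 and 0.000358. SK-N-BE(2)C also exceeded SH-SY5Y in MAP1B by 1.02 ± 0.15 and MAP2 by 0.94 ± 0.15, in INA by 0.71 ± 0.10, in DCX by 1.59 ± 0.42 (adjusted p 0.00336) and in NEFM by 0.60 ± 0.22 (adjusted p 0.0365). The NEFM call was lost in 10 of the fits that left out 1 library (0.50 to 0.59) and with SK-N-BE(2)C replicates 3 to 5 summed (0.43 ± 0.25, adjusted p 0.205). Against IMR-32, SK-N-BE(2)C had the larger response in DCX, by 1.16 ± 0.41 (adjusted p 0.0269), and the difference was -1.61 ± 0.33 for PRPH, -1.60 ± 0.31 for GAP43, -0.98 ± 0.27 for NEFL and -0.92 ± 0.22 for NEFM. The DCX call was lost without SK-N-BE(2)C control replicate 3, 4 or 5 or IMR-32 5 d replicate 5 (1.01 to 1.07) and with those replicates summed (0.92 ± 0.44, adjusted p 0.117). MAPT was not called in any pair, with a difference of 0.93 ± 0.57 (adjusted p 0.213) between SK-N-BE(2)C and the IMR-32 line, and 0.82 ± 0.58 (adjusted p 0.301) between SK-N-BE(2)C and SH-SY5Y. Without replicate 5 of IMR-32 both were called, at 1.12 ± 0.24 (adjusted p 0.000374) and 0.82 ± 0.24 (adjusted p 0.00708), and GAP43 was called in SK-N-BE(2)C minus SH-SY5Y (0.58 ± 0.17, adjusted p 0.00623).

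**Figure D5:**
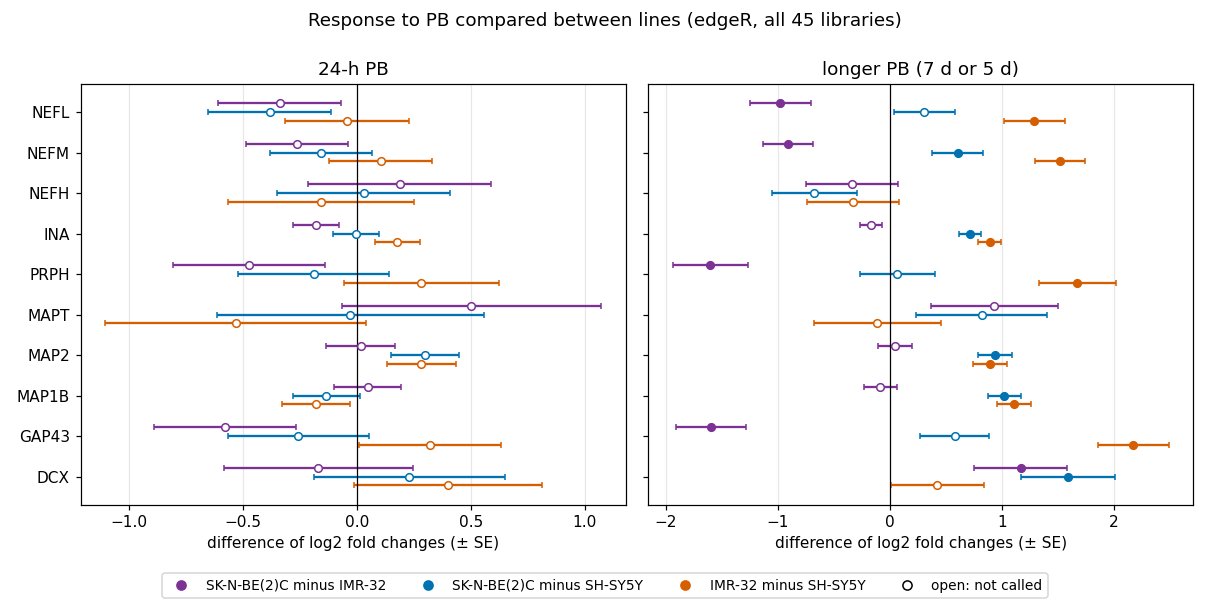
Difference of log2 fold changes against control between lines ± SE (x axis, own range per panel), at 24 h and at the longer time, filled where called. No point is filled at 24 h, and at the longer time the IMR-32 minus SH-SY5Y points are filled for 7 of the 10 genes, all to the right of 0.

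The treated times were compared directly as well. From 24 h to the longer time 5 of 10 genes were called in each line, where 31.9%, 19.6% and 16.7% of all tested genes were called in SK-N-BE(2)C, then IMR-32 and then SH-SY5Y. DCX (2.09 ± 0.32), MAPT (1.198 ± 0.16), MAP1B (0.58 ± 0.11) and MAP2 (0.53 ± 0.06) were higher at 7 d and NEFH (-0.83 ± 0.32) lower in SK-N-BE(2)C, where 17.5% of all tested genes were called higher and 14.4% lower. The NEFH call was lost without 24 h replicate 3, 4 or 5 or 7 d replicate 1 or 2 (-0.75 to -0.67). With replicates 3 to 5 summed, NEFH (-0.66 ± 0.41, adjusted p 0.206) and MAP2 (0.48 ± 0.08) were not called. All 5 in IMR-32 were higher, where 10.8% of tested genes were called higher and 8.86% lower. There, GAP43 (1.41 ± 0.33), PRPH (1.22 ± 0.28), MAP1B (0.74 ± 0.11), MAP2 (0.53 ± 0.15) and NEFM (0.52 ± 0.11) were called. Without replicate 5, MAP2 was at 0.47 ± 0.11 and not called, and MAPT was called at 0.62 ± 0.15. Single libraries decided NEFM, lost without 24 h replicate 5 or 5 d replicate 1 or 2 (0.45 to 0.46), and MAP2, lost without 24 h replicate 2 or 5 (0.45 to 0.46). DCX was not called over all libraries (0.79 ± 0.34, adjusted p 0.0862), and was called without replicate 5 (0.75 ± 0.14, adjusted p 0.000554), without control or 5 d replicate 5 alone (0.78 to 0.94) and with the replicate block (0.83 ± 0.15, adjusted p 0.0006). In SH-SY5Y, DCX alone was higher at 5 d (0.73 ± 0.12), and NEFL, NEFM, MAP1B and INA were lower, where 6.23% of all tested genes were called lower and 10.5% higher. Of the 4, INA lay nearest the limit (-0.50 to -0.46 without 5 d replicate 1 or 2), and GAP43 there was called without 24 h replicate 2 or 4 or 5 d replicate 4 (-0.58 to -0.50). PRPH and MAPT did not pass this test in SH-SY5Y, at -0.20 ± 0.13 (adjusted p 0.241) and 0.35 ± 0.15 (adjusted p 0.0727). Libraries at 24 h and at the longer time did not overlap in 40.7%, 23.8% and 24.8% of all tested genes. Of the 10 genes, 5, 5 and 1 lay wholly above the 24 h libraries and 0, 0 and 3 wholly below. These comparisons share their 24 h libraries with the tests against control.

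Other genes of the neurite skeleton were taken from lists and are given at the longer time against control, for SK-N-BE(2)C, then IMR-32 and then SH-SY5Y in this order. Beside their counts stand the shares of all tested genes, 24.5%, 16.6% and 18.6% called higher and 22.3%, 15.5% and 17.3% lower, and nothing particular to a list is read from its count. Of other structural microtubule-associated proteins, 12 of 27, 9 of 28 and 8 of 28 tested genes were called higher and 6, 4 and 4 lower (median log2FC 0.43, 0.30 and 0.08). CLIP3, a linker of vesicles to microtubules, was higher at 3.25 ± 0.15, 1.32 ± 0.20 and 1.19 ± 0.09, and MAP6, which stabilizes neuronal microtubules, at 1.81 ± 0.27, 1.76 ± 0.38 and 0.86 ± 0.12. TPX2, a protein of the mitotic spindle, was lower at -2.09 ± 0.18, -1.22 ± 0.16 and -1.68 ± 0.15. MAP1A, a relative of MAP1B typical of mature neurons, was called at 0.83 ± 0.15 in IMR-32 and 0.68 ± 0.11 in SK-N-BE(2)C, with 0.29 ± 0.11 for SH-SY5Y.

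Spectrins, ankyrins and linkers, which tie the skeleton to the membrane, were called higher in 8 of 16, 10 of 16 and 4 of 15 genes and lower in 1, 0 and 3 (median log2FC 0.46, 0.61 and 0.09). SPTBN4, the β-spectrin of axon initial segments, was higher at 2.22 ± 0.11, 0.63 ± 0.18 and 1.59 ± 0.09. Of growth cone and collapsin response mediator genes, 7 of 21, 6 of 24 and 6 of 24 were higher and 1, 1 and 6 lower (median log2FC 0.30, 0.27 and 0.09). The adhesion molecules NCAM2 (0.93 ± 0.18, 1.05 ± 0.22 and 1.92 ± 0.15) and L1CAM (0.82 ± 0.06, 1.18 ± 0.19 and 0.67 ± 0.10) were higher in each line. Of kinases, phosphatases and ligases of tau and neurofilaments, 4, 6 and 4 of 24 were higher and 3, 0 and 1 lower (median log2FC 0.35, 0.25 and 0.01). Both of its genes that were called alike in all 3 lines are kinases that phosphorylate tau: TTBK1 (2.31 ± 0.13, 2.02 ± 0.49 and 0.81 ± 0.11) and MARK4 (1.45 ± 0.09, 1.06 ± 0.16 and 0.85 ± 0.07).

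Among the other intermediate filament genes, which include vimentin, keratins and the nuclear lamins, more were called lower than higher in each line. Of the 10, 6 and 7 tested genes of this list, 0, 1 and 1 were called higher and 4, 4 and 4 lower (median log2FC -0.51, -1.10 and -0.53). VIM (vimentin) was lower at -0.93 ± 0.20, -1.32 ± 0.33 and -0.53 ± 0.11. The B-type lamins of the nuclear envelope were lower as well, with LMNB1 at -2.97 ± 0.27, -1.16 ± 0.09 and -2.17 ± 0.21 and LMNB2 at -1.46 ± 0.11, -0.61 ± 0.11 and -0.69 ± 0.06. NES (nestin), the filament of neural progenitors, was not called (-0.05 ± 0.12, -1.03 ± 0.57 and -0.12 ± 0.08).

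Markers of other cell types were measured beside these genes. Of 9, 6 and 11 tested mesenchymal markers, 1, 0 and 1 were higher and 6, 4 and 6 lower at the longer time. The shares of all tested genes were 24.5%, 16.6% and 18.6% called higher and 22.3%, 15.5% and 17.3% lower. TWIST1, a transcription factor of mesenchymal cells, was the only one called alike in all 3 lines. It was lower in each (-0.94 ± 0.09, -0.57 ± 0.11 and -1.13 ± 0.09). The summed level of the 11 mesenchymal markers found went from 727 to 778 CPM in the controls to 761 to 950 in SK-N-BE(2)C, from 345 to 487 down to 192 to 253 in IMR-32, and for SH-SY5Y from 779 to 846 down to 497 to 557. At 24 h the mesenchymal sums were 774 to 825.6, 348.5 to 428.8 and 591.9 to 749.3 CPM, without overlap with the controls in SH-SY5Y alone. Then 1, 0 and 0 were called higher and 3, 1 and 5 lower, beside 10.6%, 10.5% and 11% of all tested genes called lower. COL1A2 was at 0 in SK-N-BE(2)C controls, and FOSL1 in treated IMR-32. Schwann cell markers, over 6 genes, summed to 15.8 to 21.9 CPM in the controls and 15.8 to 26.65 at the longer time in SK-N-BE(2)C, to 1.34 to 3.84 and then 5.44 to 9.16 in IMR-32, and to 2.97 to 4.68 and then 5.28 to 11.95 in SH-SY5Y, so that the IMR-32 and the SH-SY5Y groups did not overlap. Of 3, 1 and 3 tested, 1, 1 and 2 were called higher and 1, 0 and 0 lower at the longer time, beside the shares given above. At 24 h the Schwann sums were 22.13 to 27.66, 3.381 to 4.067 and 4.396 to 6.436 CPM, without overlap with the controls in SK-N-BE(2)C alone. Then 2, 0 and 1 were called higher and 0 lower, beside 10.9%, 7.87% and 10.5% of all tested genes called higher. CDH19 was at 0 in every group except 7-d PB SK-N-BE(2)C. The adrenergic markers, which were not tested as a sum, summed at 24 h of PB to 4340 to 4533 CPM in SK-N-BE(2)C (controls 3149 to 3676), to 3369 to 4467 in IMR-32 (controls 2146 to 3219), and to 6298 to 8203 in SH-SY5Y (controls 4284 to 5725), without overlap with the controls. At 24 h 1, 4 and 2 of 9 were called higher and 0 lower, beside 10.9%, 7.87% and 10.5% of all tested genes called higher. The sums at the longer time were 4128 to 4881, 2986 to 3634 and 4435 to 6168 CPM, which overlapped with the controls in IMR-32 and in SH-SY5Y, with 1 of 9 called higher and 1 lower in each line. The part of these cell types in the members' changes was not tested, and in bulk RNA a change in the share of such cells and in RNA per cell cannot be told apart.

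By the likeness of log2 CPM over the 15 libraries of each line, averaged over lines among 9774 genes with at least 5 CPM, NEFL and NEFM were nearest to each other (mean r 0.87). MAPT was most like HID1 (mean r 0.964) and CAMSAP3 (0.962), the latter a protein of microtubule minus ends. DCX was most like SH3BGRL2 and RAB6B (0.934 each), MAP1B like SPTAN1 (0.902), the non-erythroid α-spectrin, and KIDINS220 (0.861), and INA like GDAP1 (0.885) and CEP68 (0.879). PRPH followed MXRA7 (0.872) and SPATA20 (0.863), MAP2 followed TRIM2 (0.842) and FNBP1L (0.817), and GAP43 followed KIF21A (0.794) and CDK5R1 (0.769). NEFH was least matched, with MYRIP at 0.74 and ELAVL2 at 0.681, and the second gene for NEFL was FAM124A (0.863) and for NEFM XBP1 (0.762). These correlations describe libraries that share line and treatment, and carry no test.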

How the data were processed

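PolyA RNA was made into directional libraries and sequenced as paired ends. Per the submitters' processing notes and the study's methods, the authors trimmed reads (Trim Galore 0.6.4), aligned them to hg19 and counted them per gene with STAR (2.6.1d in the notes, another 2.6.1 release in the methods), and the deposited counts were used as they stand. Which strand column they took is not stated. The authors' CPM and comparison tables (DESeq2 1.32.0 fold changes and p-values) were not used.

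Samples were grouped by line and treatment from the labels. Part of the genotype of the lines is not reported here. Each line's 15 libraries (13459219 to 25441812 counts) were fitted with edgeR 4.0.16 in R 4.3.3 (TMM factors, filterByExpr with a minimum count of 10, total of 15 and proportion of 0.7, robust quasi-likelihood F test), and differences between lines in a fit of all 45. A gene was called at a Benjamini-Hochberg adjusted p under 0.05 over all genes tested and a log2 value beyond 0.5. SE is the log2 value divided by the root of F. Levels per kb used merged exons of GENCODE on GRCh37. The procedure was tested on simulated independent libraries of constant dispersion, with changes well beyond the fold limit. Outlying or closely alike libraries and changes near the limit were not simulated. P-values measure the spread between passages of 1 culture line.

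The 10 genes, the context lists and the tests were chosen with earlier results of these data known. Named genes outside the 10 were VIM, NES and MAP1A, of each list up to 3 genes with the largest mean change among those called alike in all lines, and for each of the 10 the 2 most correlated genes. Alternatives were DESeq2 1.42.0, RLE factors, library size alone, no filter, no fold limit, the replicate block, single libraries left out, replicate 5 of IMR-32 left out, SK-N-BE(2)C replicates 3 to 5 summed (4 and 5 at 7 d), and the longest transcript as length. Replicate numbers were taken as pairing where the lowest correlation of same-numbered libraries' deviations was over 0.1. That held for SK-N-BE(2)C control with 24 h (0.39) and with 7 d (0.121), IMR-32 control with 5 d (0.136) and 24 h with 5 d (0.119), and SH-SY5Y control with 24 h (0.32) and 24 h with 5 d (0.182).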

Additional observations from a re-analysis of the deposited data

Results flagged for a closer look

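Single libraries far from the other 4 of their group were looked for in 90 groups of 5 (10 genes by 9 groups), on the log2 scale. Chance flags about 1 in 20 groups, and 14 were found, of which 10 were replicate 5 of IMR-32. Below the other IMR-32 controls, replicate 5 held 50.1 CPM of NEFL, 7.17 of PRPH, 11.6 of MAPT, 178 of MAP2, 16.4 of GAP43 and 228 of DCX. At 24 h it was low again for NEFL (59.4 CPM), PRPH (24), MAPT (29.7) and GAP43 (23.1). At 5 d it was not set apart by this measure for any of the 10 genes.

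The other 4 were NEFH in IMR-32 control replicate 3 (23.2 CPM, high), INA in SK-N-BE(2)C 24 h replicate 1 (385 CPM, low) and 7 d replicate 3 (501 CPM, high), and MAPT in SH-SY5Y 5 d replicate 4 (62 CPM, high).

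The response to longer PB differed between lines in 17 tests in edgeR's fit of 45 libraries, with differences of log2FC as follows. In IMR-32 minus SH-SY5Y they were 1.29 for NEFL, 1.52 for NEFM, 0.89 for INA, 1.67 for PRPH, 0.89 for MAP2, 1.11 for MAP1B and 2.17 for GAP43. In SK-N-BE(2)C minus IMR-32 they were -0.98 for NEFL, -0.92 for NEFM, -1.61 for PRPH, -1.60 for GAP43 and 1.16 for DCX. In SK-N-BE(2)C minus SH-SY5Y they were 0.60 for NEFM, 0.71 for INA, 0.94 for MAP2, 1.02 for MAP1B and 1.59 for DCX. The days of treatment differ between SK-N-BE(2)C and the other lines and cannot be told apart from the line.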

How the results depend on the processing

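Of the single-gene results, 137 of 138 kept direction and call with RLE factors and 136 with DESeq2 and with library size alone. With the replicate block 131 kept them and 7 more were called. Without a count filter 131 kept them, 6 lost the call and 1 more was called. The counts of called genes moved most with the fold limit. Without it, 4 genes (24 h) and 8 genes (7 d against 24 h) were called in SK-N-BE(2)C, and 4 (24 h) and 10 (5 d, of which 7 lower) in SH-SY5Y, where 46.8%, 59.3%, 49.2% and 65.4% of all tested genes were called by that rule. The context lists, without the limit, had 64 (24 h) and 74 (7 d against 24 h) of 119 called for SK-N-BE(2)C, then 31 and 53 of 114 for IMR-32 (33.1% and 34.4% of all genes), and 70, 86 (5 d against control) and 56 of 121 in SH-SY5Y (43.5% of all genes for the last). In SK-N-BE(2)C, 1 gene was called at 24 h and 3 at 7 d against 24 h both without a count filter and with replicates 3 to 5 summed (PRPH, and NEFH and MAP2, were lost in each), where 12.2% and 20.2%, and 15.7% and 30.2%, of all genes were called. In IMR-32, 1 was called at 24 h with DESeq2, RLE factors or library size alone (16.2%, 17.6% and 17.2% of all genes). Without replicate 5 of IMR-32, GAP43 (-0.58) made 1 gene that differed between SK-N-BE(2)C and IMR-32 at 24 h (6.05% of all genes). The cause was not tested.

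Leaving out 1 library in turn gave 1 to 2 called genes at 24 h in IMR-32 (15.5% to 21.7% of all genes), 1 to 2 in SK-N-BE(2)C (19.9% to 22%), and 3 to 6 at 5 d against 24 h in IMR-32 (16.6% to 21.4%). Only small log2FC values changed sign in these fits: at 24 h, NEFH (-0.18 to 0.083) and NEFM (-0.22 to 0.0058) in SK-N-BE(2)C, NEFH in IMR-32 (-0.54 to 0.054) and NEFM in SH-SY5Y (-0.024 to 0.082), and from 24 h to the longer time, PRPH in SK-N-BE(2)C (-0.15 to 0.20) and NEFH in IMR-32 (-0.46 to 0.011).

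The lowest correlation was under 0.1 for IMR-32 control with 24 h (0.0975), SH-SY5Y control with 5 d (0.0912) and SK-N-BE(2)C 24 h with 7 d (0.0028). In this order the remaining replicates were at 0.51 to 0.87, 0.25 to 0.30 and 0.07 to 0.56. The rule rests on the lowest value alone, so these libraries were not shown to be unpaired. The replicate block added DCX in IMR-32 at 24 h (0.64), and NEFH (-0.74) and GAP43 (0.57) in SK-N-BE(2)C minus SH-SY5Y. The block changed no call beyond these and those given with the results. The length taken moved 11 of 30 levels per kb and 15 of 45 shares by more than 1 SD.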
